A study of Mus musculus with 18 samples.

Results

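The transcripts of 9 erythroid genes were followed in RNA of mouse knee cartilage after rupture of the anterior cruciate ligament (ACL). The genes were chosen by name as products of the red cell lineage, namely the adult globins Hba-a1, Hba-a2, Hbb-bs and Hbb-bt, the haem synthesis enzyme Alas2, the anion exchanger Slc4a1, the transcription factors Klf1 and Gata1, and the erythropoietin receptor Epor. Earlier results of these data were known when these genes were chosen. They are 9 of 49184 genes with a transcript matched to GENCODE. The libraries came from male C57Bl/6J mice, 12 weeks old when the ACL group was formed, without any transgene or deleted gene. The ligament of the right knee was ruptured by a single load of 12 N, and the opposite left knee served as contralateral control. Of 18 ruptured mice, 6 were killed at day 1 and 12 at day 7, and 6 naïve mice that were never loaded gave a further control. Caps of femoral condyle cartilage were cut at the tidemark, the border between unmineralised and mineralised cartilage, and pooled, so that each library holds several knees. The study pooled 4 mice a library at day 7, because part of the cartilage had been lost by then, and the 6 mice of day 1 gave 3 libraries a side. Against naïve or day 1 libraries, pool size and day 7 injury therefore cannot be told apart, while both knees of day 7 came from the same 12 mice. Libraries were made from total RNA depleted of ribosomal RNA, with 6 naïve, 3 day 1 contralateral, 3 day 1 injured, 3 day 7 contralateral and 3 day 7 injured libraries. The naïve libraries were labelled with day 7. By the study's scheme, left and right knees of the naïve mice were pooled apart, so that these libraries share mice. The labels do not name the mice, and all libraries were treated as independent. The errors and FDRs below may therefore be too small where naïve libraries are compared. Where both knees of the same mice are compared, they may be off in either direction.

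Red cells arise in bone marrow, where erythropoietin binds its receptor Epor on progenitors and the factors Gata1 and Klf1 switch on the genes of haemoglobin and of the red cell membrane. Haemoglobin joins alpha and beta chains around haem, and maturing cells fill with globin mRNA before the nucleus is lost. Articular cartilage has no blood vessels, but the bone beneath it encloses marrow.

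Both globin pairs are products of gene duplication, and their transcripts are hard to tell apart. The alpha genes lie on chromosome 11 of GRCm38, Hba-a1 (ENSMUSG00000069919) at chr11:32283511-32284465 and Hba-a2 at chr11:32296489-32297298, both on the plus strand. The beta genes lie on the minus strand of chromosome 7, Hbb-bs at chr7:103826534-103828096 and Hbb-bt at chr7:103812524-103813996. The coding sequences differ at 1 of 426 bases between the alpha genes and at 1 of 441 bases between the beta genes, and the 41 coding bases around each difference are printed 5′ to 3′ from GENCODE's transcripts, with the differing base in capitals. They show how little sequence separates the members of a pair. The differences are C381T from Hba-a1 to Hba-a2 and C417T from Hbb-bs to Hbb-bt, counted from the first base of the start codon.
Hba-a1, coding bases 361 to 401: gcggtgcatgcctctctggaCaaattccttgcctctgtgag
Hba-a2, coding bases 361 to 401: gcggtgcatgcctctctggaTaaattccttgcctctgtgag
Hbb-bs, coding bases 397 to 437: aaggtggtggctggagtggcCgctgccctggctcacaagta
Hbb-bt, coding bases 397 to 437: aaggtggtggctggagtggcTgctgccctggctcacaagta
Of all stretches of 31 bases in the main transcripts, Hba-a2 shared 91.0% with Hba-a1, and Hbb-bs shared 66.9% with Hbb-bt. The split of counts within a pair is therefore an estimate of the quantification software, and each pair was also tested as a sum. Slc4a1, Klf1, Gata1 and Epor shared no such stretch with another gene, while Alas2 shared 15.6% of its stretches with genes that include Apex2, which overlaps it in the opposite orientation.

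The promoters were compared because most of the members moved together across libraries, as described further on. Those of 8 members were read from RefSeq (GRCm38.p6) over the 150 bases before the annotated start. Slc4a1 was not among them. The letters AGATAA, a motif of GATA factors, were searched on both strands. So were CACCC, a motif of Krüppel-like factors, and the box of the nuclear factor Y complex, CCAAT. No match of one motif overlapped a match of another. CACCC was found in 8 of 8 promoters (37.4% of 32851 mouse promoters), CCAAT in 5 of 8 (24.5%) and AGATAA in 2 of 8 (5.65%). These counts include the matches of Hba-a1, whose 150 bases all lie within the span that GENCODE gives its main transcript. They also include the CACCC matches of Alas2, which lie within that span of Alas2. The promoters of an alpha gene, a beta gene, Alas2 and Epor are printed 5′ to 3′ on the strand of the gene, with the motifs in capitals, and stop short of any base that GENCODE places in the gene's main transcript.
Hba-a2, plus strand, chr11:32296342-32296488: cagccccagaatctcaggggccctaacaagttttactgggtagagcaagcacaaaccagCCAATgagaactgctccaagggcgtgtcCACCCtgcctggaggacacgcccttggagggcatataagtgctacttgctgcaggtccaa
Hbb-bs, minus strand, chr7:103827929-103828078: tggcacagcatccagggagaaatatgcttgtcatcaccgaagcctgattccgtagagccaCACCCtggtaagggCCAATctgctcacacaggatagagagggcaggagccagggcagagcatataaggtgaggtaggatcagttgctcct
Alas2, plus strand, chrX:150547267-150547374: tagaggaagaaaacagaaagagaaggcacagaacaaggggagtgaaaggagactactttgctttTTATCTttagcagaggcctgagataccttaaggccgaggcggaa
Epor, minus strand, chr9:21963577-21963726: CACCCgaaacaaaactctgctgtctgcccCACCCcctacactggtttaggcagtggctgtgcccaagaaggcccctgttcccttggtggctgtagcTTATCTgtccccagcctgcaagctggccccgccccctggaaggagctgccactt
The globin promoters held CCAAT and CACCC, 91 and 63 bases before the start in Hba-a2 and 76 and 90 bases before it in Hbb-bs. Alas2 and Epor held AGATAA, printed as its reverse complement TTATCT, 86 and 54 bases before the start. The CACCC matches of Alas2 lie closer to the start than the stretch printed. A match is a description of the letters, and no factor binding was measured.

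The libraries held between 16074762 and 41794005 estimated counts, with a median of 25465706. Of the listed transcripts, 98.31% were matched to a gene, and the unmatched ones held 0.667% to 3.90% of the counts. One library stood apart from the rest. In day 7 contralateral replicate 1, the 10 most abundant genes held 42.5% of the counts, against 16.6% to 29.8% in the other libraries, and the unmatched share was the highest of all. Comparisons of the members that use it were also run without it. Levels are given as CPM, counts scaled to the size of the library after adjustment by TMM factors (trimmed mean of M-values). The summed level of 10 chondrocyte genes was 5870 ± 1263 CPM (mean ± SD, n = 6) in naïve libraries, led by Col2a1, the main collagen of cartilage, and none of the 10 was at 0 in any library.

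The globins were among the most abundant transcripts of the cartilage libraries. Compared per length, as TPM (counts scaled to transcript length and to library size), Hbb-bs ranked between 5 and 9 among all genes, Hba-a2 between 5 and 11, Hba-a1 between 10 and 16 and Hbb-bt between 10 and 27 across the 18 libraries. In naïve libraries, the TPM of Hbb-bs was 16179 ± 2234 and that of Hba-a2 14368 ± 3051 (SD, n = 6), which overlapped. Hba-a1 followed at 4737 ± 968 TPM and Hbb-bt at 2589 ± 452 TPM, without overlap with each other or with the higher pair. Slc4a1 (211 ± 39.7 TPM) and Alas2 (207 ± 39.0 TPM) were level with each other and far below the globins. Gata1 stood at 16.1 ± 2.39 TPM and Epor at 10.6 ± 1.56 TPM, and their ranges did not overlap. Together, the 4 globins held 3.28% ± 0.322 of the matched counts in naïve libraries, with a range of 2.89% to 3.80%.

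At day 7 the share of globin counts in injured libraries lay below every naïve library. It was 2.16%, 1.80% and 1.30% in the 3 day 7 injured libraries, against 4.30%, 2.90% and 2.91% in the day 7 contralateral ones. At day 1 it was 2.41%, 3.61% and 2.02% in injured and 3.88%, 2.97% and 3.84% in contralateral libraries, so that day 1 injured replicate 2 lay inside the naïve range and the other injured libraries below it. In these bulk samples, a share cannot tell apart fewer erythroid cells, less RNA per erythroid cell and more RNA from other genes.

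**Figure D1:**
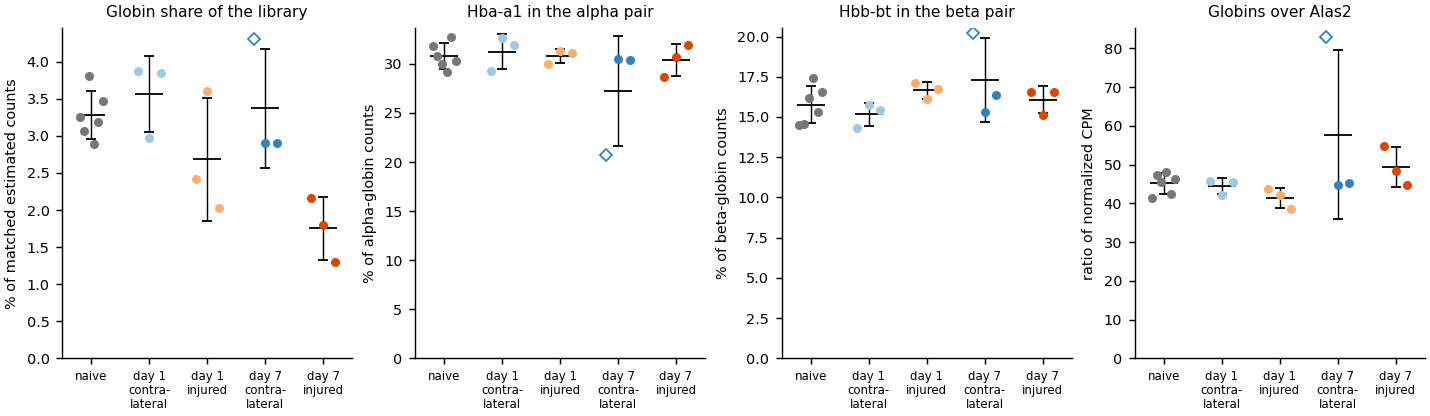
Globin shares and ratios in each library by group, with 1 point per library and a bar at the group mean. The 4 globins held 1.30% to 2.16% of the matched counts in day 7 injured libraries, below the naïve range of 2.89% to 3.80%, and the white diamond of day 7 contralateral replicate 1 lies away from the others in the ratios within the globins.

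Hba-a1 and Hba-a2 encode the alpha chain of adult haemoglobin. Hba-a1 stood at 3755, 4590 and 5833 CPM as the lowest, median and highest naïve library, and at 3602, 2972 and 2360 CPM in day 7 injured libraries. Their contralateral libraries gave 4860, 4026 and 4324 CPM. All 3 injured libraries lay below all naïve and all contralateral libraries of Hba-a1, although the gap between the highest injured and the lowest naïve library was small. At day 1, Hba-a1 gave 3105, 4372 and 2815 CPM in injured and 4323, 4220 and 5486 CPM in contralateral libraries, which overlapped.

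Hba-a2 gave 9114, 10065 and 13612 CPM as the lowest, median and highest naïve library and 8946, 6722 and 5029 CPM in day 7 injured libraries. In the day 7 contralateral group it gave 18595, 9175 and 9893 CPM. The groups did not overlap, and the contralateral mean was carried by replicate 1. The day 1 injured libraries gave 7233, 9595 and 6231 CPM and their contralateral libraries 10459, 8729 and 11703 CPM, and these groups overlapped.

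Hbb-bs and Hbb-bt encode the adult beta chain. Hbb-bs gave 12653, 14138 and 15797 CPM as the lowest, median and highest naïve library and 11005, 10208 and 6586 CPM in day 7 injured libraries. The day 7 contralateral libraries gave 30606, 11671 and 12231 CPM. Again the injured libraries were below both controls without overlap, and contralateral replicate 1 lay far above its fellows. At day 1, Hbb-bs was at 10018, 14470 and 6983 CPM in injured and 16723, 12198 and 16519 CPM in contralateral libraries.

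Hbb-bt gave 2289, 2585 and 3049 CPM as the lowest, median and highest naïve library and 2183, 1815 and 1306 CPM in day 7 injured libraries. The day 7 contralateral libraries gave 7755, 2104 and 2394 CPM, so that the injured and contralateral groups overlapped through contralateral replicate 2. The day 1 injured libraries gave 2065, 2775 and 1407 CPM and their contralateral libraries 2798, 2275 and 3016 CPM.

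Alas2 (chrX:150547375-150570638, plus strand) makes the first and rate-limiting enzyme of haem synthesis in erythroid cells. It gave 593.9, 699.5 and 841.4 CPM as the lowest, median and highest naïve library and 469.3, 449.0 and 341.0 CPM in day 7 injured libraries. In the day 7 contralateral group it gave 746.3, 601.8 and 636.9 CPM. The injured libraries of Alas2 were clear of both controls, and contralateral replicate 1 lay inside the naïve range for this gene. At day 1 Alas2 was at 514.5, 739.7 and 452.7 CPM in injured and 747.8, 649.6 and 804.8 CPM in contralateral libraries.

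Slc4a1 (chr11:102348824-102366203, minus strand) encodes band 3, the anion exchanger that anchors the red cell skeleton to the membrane. It gave 1444, 1617 and 1920 CPM as the lowest, median and highest naïve library and 1127, 1046 and 912.5 CPM in day 7 injured libraries. The day 7 contralateral libraries gave 1737, 1418 and 1604 CPM. These groups did not overlap, and the day 7 injured libraries of Slc4a1 also lay below the day 1 injured ones, at 1365, 1785 and 1222 CPM, as did those of 17.5% of all genes. The day 1 contralateral libraries gave 1851, 1610 and 2151 CPM.

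Gata1 (chrX:7959260-7978071, minus strand) encodes the zinc finger factor that drives erythroid and megakaryocyte genes. It gave 46.6, 50.9 and 59.0 CPM as the lowest, median and highest naïve library and 40.2, 40.0 and 32.1 CPM in day 7 injured libraries. In contralateral libraries of day 7 Gata1 gave 85.4, 46.5 and 52.8 CPM. Day 7 injured libraries were the lower ones in both comparisons, without overlap. Gata1 was also the one member whose day 1 injured libraries, at 42.0, 49.3 and 33.7 CPM, all lay below the day 1 contralateral ones, at 55.2, 50.8 and 58.1 CPM, as did those of 6.07% of all genes.

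Epor (chr9:21958897-21963506, minus strand) encodes the receptor through which erythropoietin keeps progenitors alive. It gave 25.5, 30.1 and 33.6 CPM as the lowest, median and highest naïve library and 20.8, 19.0 and 18.1 CPM in day 7 injured libraries. The day 7 contralateral libraries gave 47.9, 26.9 and 27.4 CPM. The day 7 injured libraries of Epor lay close together and below both controls. They also lay below the day 1 injured libraries, at 25.0, 33.3 and 22.6 CPM, while the day 1 contralateral libraries gave 34.4, 31.5 and 35.5 CPM.

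Klf1 (chr8:84901928-84905291, plus strand), the Krüppel-like factor that activates the adult beta-globin genes, was the exception. Only 5 of 18 libraries held more than 50 estimated counts of it, namely day 7 contralateral replicate 1 with 1135, naïve replicate 6 with 181, day 1 injured replicates 2 and 3 with 161 and 151, and day 1 contralateral replicate 1 with 87.6. The other 13 libraries held at most 8.37 estimated counts, and the 3 day 7 injured libraries held at most 0.630. The libraries with Klf1 came from 4 of the 5 groups. No fold change is given for Klf1. The 2329 unmatched transcripts carry no gene name, and whether any belongs to Klf1 was not tested.

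**Figure D2:**
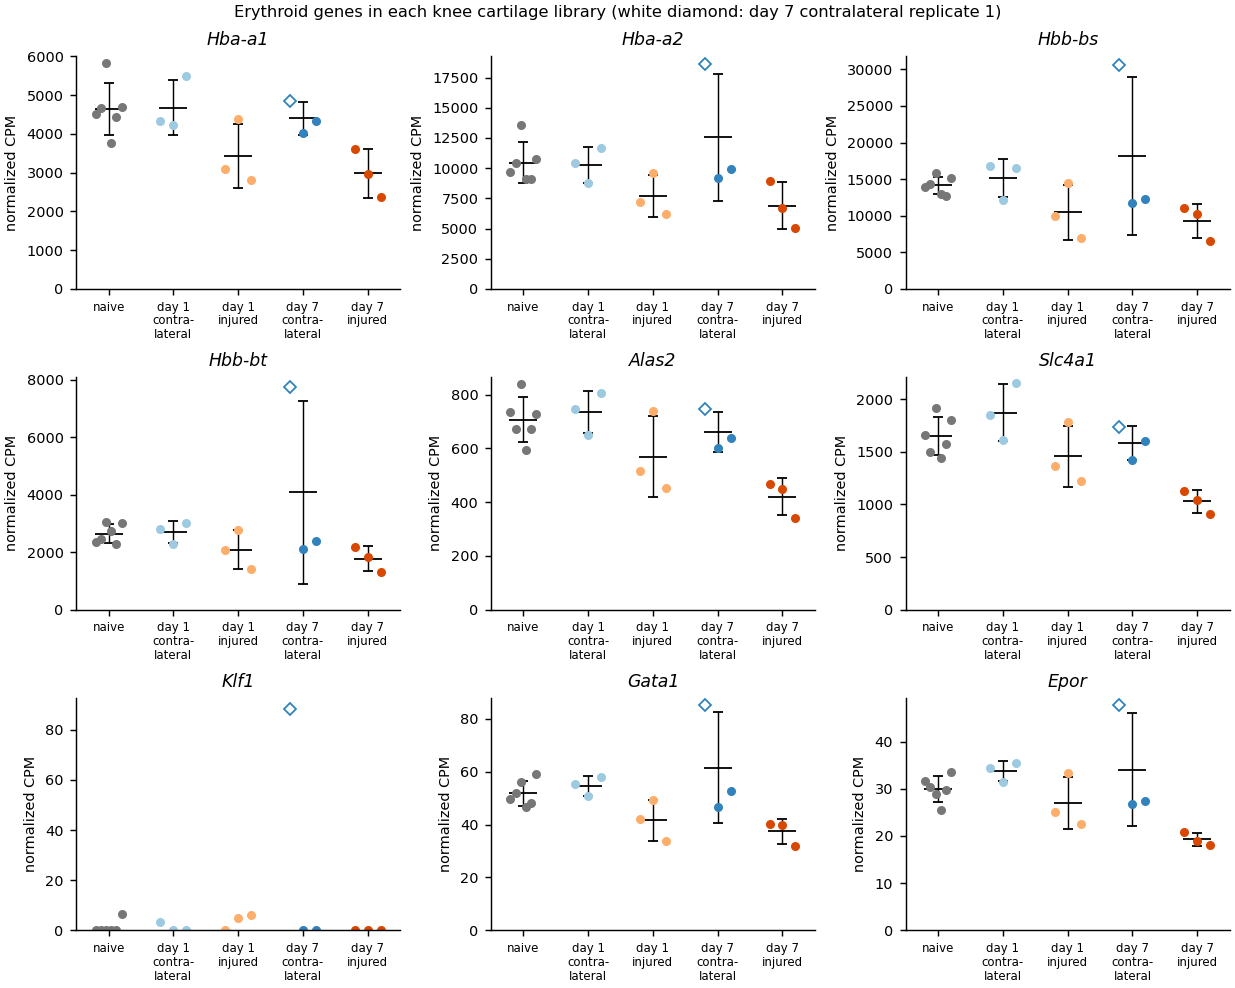
Normalised CPM of each of the 9 genes in each library by group, with 1 point per library, a bar at the group mean (none for Klf1) and a white diamond for day 7 contralateral replicate 1. For the 8 genes other than Klf1, all 3 day 7 injured libraries lie below all 6 naïve libraries, as do those of 10.8% of all genes, and Klf1 is near 0 in 13 of 18 libraries.

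The comparison of day 7 injured with naïve libraries asks what had changed in cartilage a week after rupture. By edgeR's quasi-likelihood test with Benjamini-Hochberg adjustment over all tested genes, 4 of the 9 members passed both limits, an FDR of at most 0.05 and a change of at least 1.5-fold, and all were lower. The background was 6.11% of 21129 genes called lower and 10.4% called higher. Alas2 fell by 0.73 on the log2 scale (SE 0.158, FDR 0.00274), a fold of 1.66. Slc4a1 fell by 0.66 (SE 0.144, FDR 0.00280), Hba-a1 fell by 0.62 (SE 0.183, FDR 0.0184) and Epor fell by 0.61 (SE 0.117, FDR 0.00106). The remaining globins and Gata1 had similar or smaller values. Hba-a2 at -0.58 (FDR 0.0445), Hbb-bt at -0.56 (FDR 0.0484) and Gata1 at -0.45 (FDR 0.00914) met the FDR limit but not the fold limit, and Hbb-bs at -0.59 (FDR 0.0606 by edgeR's test) met the fold limit but not the FDR limit. In 8 of the 9 members the 3 injured libraries lay below all 6 naïve ones, as did those of 10.8% of all genes. Summed before the test, the alpha pair fell by 0.60 (SE 0.205, FDR 0.0398) and the beta pair stood at -0.59 (SE 0.225, FDR 0.0624) by edgeR's test. Without day 7 injured replicate 3, which had the lowest CPM of all libraries for the 8 members other than Klf1, 1 member was called, Alas2 at -0.60 (FDR 0.0254 by edgeR's test). Without injured replicate 2, Hba-a1 (FDR 0.0578) was not called. The share of all genes called in these refits is not given, and the 6.11% above belongs to the fit with all libraries.

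Against the opposite knees of day 7, edgeR's test called 7 members lower, where the background was 3.23% of 21262 genes called lower and 9.33% called higher. This comparison uses the same injured libraries as the previous one. Hbb-bt fell by 1.21 (SE 0.377, FDR 0.0326), Hba-a2 fell by 0.86 (SE 0.278, FDR 0.0378), Epor fell by 0.81 (SE 0.187, FDR 0.00516) and Gata1 fell by 0.72 (SE 0.185, FDR 0.0112). Alas2 fell by 0.66 (SE 0.177, FDR 0.0143) and Slc4a1 fell by 0.63 (SE 0.162, FDR 0.0115), values close to those against naïve libraries. Hbb-bs at -0.97 (FDR 0.0522) and Hba-a1 at -0.56 (FDR 0.0616) missed the FDR limit of edgeR's test, and the call of Klf1 came from contralateral replicate 1. Summed before the test, the alpha pair fell by 0.78 (FDR 0.0437) and the beta pair fell by 1.01 (FDR 0.0494) by edgeR's test. In 8 members, Klf1 included and Hbb-bt not, the groups did not overlap, against 14.3% of all genes in this direction. The calls depended on contralateral replicate 1. Without it, 0 of 9 members passed both limits by edgeR's test, where 1.99% of genes were called lower, although all 8 members other than Klf1 stayed below 0, from -0.33 for Hbb-bt to -0.54 for Alas2. Epor at -0.47 (FDR 0.0294) and Slc4a1 at -0.53 (FDR 0.0427) then met the FDR limit alone, and 5 members had an unadjusted p below 0.05. Without that library Hba-a1 stood at -0.47, Hba-a2 at -0.44, Hbb-bs at -0.34 and Gata1 at -0.39, with FDRs of 0.166, 0.248, 0.438 and 0.0811 by edgeR's test. The pair sums were no longer called either, at -0.45 (FDR 0.234) for alpha and -0.34 (FDR 0.441) for beta. The count of members called was 4 without injured replicate 2 (Alas2, Slc4a1, Gata1 and Epor) and 1 without injured replicate 3 (Epor). The share of all genes called in these refits is not given.

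At day 1 no member was called. Against naïve libraries, the 8 members other than Klf1 lay between -0.15 for Epor and -0.44 for Hba-a2, all with an FDR of 0.987 by edgeR's test. The background was 0% of genes called, with 959 genes and 3 of these 8 members at an unadjusted p below 0.05, and limma-voom and DESeq2 called 0 members too. Against the day 1 contralateral libraries, the values lay between -0.33 for Epor and -0.53 for Hbb-bs, with FDRs from 0.755 to 0.789 by edgeR's test. Here too the background was 0%, with 1383 genes and 4 of the 8 members at an unadjusted p below 0.05, and limma-voom and DESeq2 called 0 members. All 8 were thus below 0 in both comparisons, but day 1 injured replicate 2 lay within the naïve range for every one of them. The TPM means of day 1 injured libraries lay above the naïve means for the same 8 members, so that this direction depended on the scale.

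**Figure D3:**
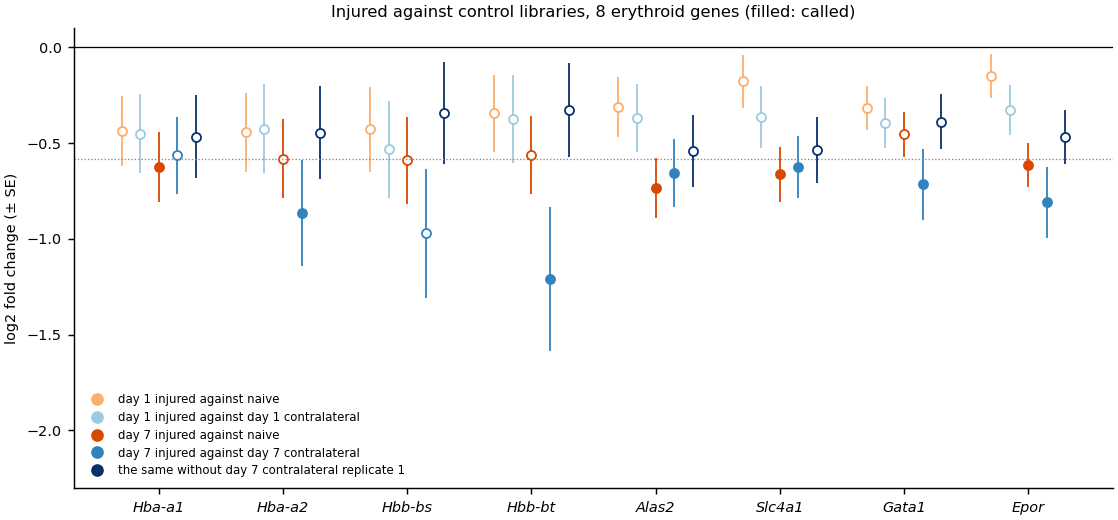
Log2 fold change with SE of the 8 genes other than Klf1 in the comparisons of injured with control libraries, with 1 point per gene and comparison. All points lie below 0. Those of day 1 lie between -0.15 and -0.53, and those of day 7 with all libraries between -0.45 and -1.21. Refitted without day 7 contralateral replicate 1, those against day 7 contralateral libraries lie between -0.33 for Hbb-bt and -0.54 for Alas2. None of these is called.

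Whether the effect of injury differed between the days was tested as an interaction. The difference of the log2 fold changes against the contralateral knees, day 7 minus day 1, lay between -0.12 for Hba-a1 and -0.84 for Hbb-bt in the 8 members other than Klf1, with FDRs from 0.379 to 0.881 by edgeR's test, and no member was called where 3.77% of all genes were. Of the 8 members other than Klf1, 0 had an unadjusted p below 0.05, and DESeq2 and limma-voom called 0 of the 9. Without day 7 contralateral replicate 1 the differences lay on both sides of 0, from -0.17 for Slc4a1 to 0.19 for Hbb-bs, and 0 members were called by edgeR's test. Compared directly with day 1 injured libraries, 0 members passed both limits of edgeR's test at day 7, against a background of 6.38% called lower, while limma-voom called 0 and DESeq2 called Klf1. Slc4a1 at -0.49 (FDR 0.0402) and Epor at -0.46 (FDR 0.0190) met the FDR limit alone, and Alas2 at -0.42 (FDR 0.0953) had an unadjusted p of 0.0311. Without day 1 injured replicate 3, Slc4a1 was called. The globins lay between -0.14 for Hba-a2 and -0.22 for Hbb-bt.

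The control groups did not differ detectably in these genes. Against naïve libraries, edgeR's test called 0 members in day 7 contralateral libraries, where the background was 0% and 3220 genes had an unadjusted p below 0.05, and 0 members in day 1 contralateral libraries, where the background was 0% and 554 genes had one. DESeq2 and limma-voom called 0 members in either comparison. For the 8 members other than Klf1, the values at day 1 lay between -0.02 and 0.19 on the log2 scale, and at day 7 between -0.10 for Alas2 and 0.63 for Hbb-bt (FDR 0.352 by edgeR's test). Without contralateral replicate 1, all 8 day 7 values lay below 0, from -0.06 for Gata1 to -0.24 for Hbb-bs, and that of Hbb-bt turned to -0.24 (FDR 0.946 by edgeR's test).

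Proportions between the members were compared within libraries, leaving out Klf1. Hba-a1 made up 28.7% to 32.7% of the alpha-globin counts in 17 libraries and 20.7% in day 7 contralateral replicate 1. Hbb-bt made up 15.8% ± 1.16 of the beta-globin counts in naïve libraries (SD, n = 6) and 20.2% in the same contralateral library. The TPM of the beta pair stood at 0.993 ± 0.0738 times that of the alpha pair in naïve libraries and at 1.42 times in day 7 contralateral replicate 1. Between classes, the CPM of the 4 globins was 45.2 ± 2.67 times that of Alas2 in naïve libraries, with a range of 38.5 to 54.8 over the 17 libraries, 54.8, 48.4 and 44.8 times in day 7 injured libraries and 82.8 times in day 7 contralateral replicate 1. In that library Hba-a2, Hbb-bs, Hbb-bt, Klf1, Gata1 and Epor lay above the naïve range in CPM, while Hba-a1, Alas2 and Slc4a1 lay inside it. In TPM the same library lay below the naïve range for the 8 members other than Klf1 except Hbb-bt, as with 1809 TPM of Hba-a1 against a lowest naïve value of 3678 TPM, so that its direction depended on the scale. The ratio of Slc4a1 to Gata1 CPM was 31.8 ± 2.08 in naïve and 28.02, 26.16 and 28.47 in day 7 injured libraries, and 20.3 in day 7 contralateral replicate 1.

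Across the 18 libraries, which share the group differences and the depth of each library, the members other than Klf1 varied together. On log2(CPM + 1), Pearson's r was 0.97 for Alas2 with Slc4a1 and for Hbb-bs with Hbb-bt, and the lowest r among these 8 was 0.67, for Hbb-bt with Slc4a1. Without day 7 contralateral replicate 1 the latter was 0.87. Klf1 had an r of 0.14 with Hba-a1 and of 0.63 with Hbb-bt, the latter 0.07 without that library. The summed CPM of the members, most of it from the globins, was also compared with 15979 other genes. Those most alike included Urod (r 0.963), March2 (0.962), Mkrn1, Ccnf and Fn3krp (0.958 each), Samd14, Alad, E2f2 and Abcb6 (0.950). Urod and Alad encode enzymes of haem synthesis.

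The wider red cell programme was followed with 68 further genes in 5 lists, of which Ahsp was not found and 67 were tested. Of these, 13 (19.4%) were called lower and 2 higher in day 7 injured against naïve libraries by edgeR's test, and 65 lay below 0, with a median of -0.47. Of all genes, 6.11% were called lower, 10.4% were called higher and 53.4% lay below 0, with a median of -0.04. The largest part came from the membrane and its skeleton, where 7 of 15 genes were called lower and all 15 were below 0, with a median of -0.58. Kel, a blood group antigen, fell by 0.77 (FDR 0.000784), and Epb41, Epb42, Sptb and Tmod1, which encode parts of the membrane skeleton, were among the others called lower. The summed level of this list was 3148 ± 310 CPM in naïve libraries (SD, n = 6) and 2142, 2172 and 1825 CPM in day 7 injured libraries, which did not overlap.

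Among 17 further genes of haem synthesis and erythroid iron handling, the mitochondrial iron importer Slc25a37 fell by 0.67 (FDR 0.00210) and Tspo2 fell by 0.66 (FDR 0.00210), with a median of -0.44. Steap3, a ferrireductase of the transferrin cycle, rose by 0.90 (FDR 1.60e-07) by edgeR's test and was the one gene of that list above 0. The 14 further transcription factors and cofactors had a median of -0.41. Gfi1b, a transcriptional repressor that erythroid and megakaryocyte development requires, fell by 0.68 (FDR 0.000479), while Runx1, a factor of blood stem cells that is also used by cartilage and bone, rose by 0.93 (FDR 0.000260). Tal1 at -0.51 (FDR 0.00389) and Nfe2 at -0.47 (FDR 0.00196) missed the fold limit. Of 12 genes of terminal maturation, 2 were called lower, among them Tent5c, which fell by 0.72 (FDR 0.00515), with a median of -0.52, and of 9 red cell enzymes Bpgm, which makes 2,3-bisphosphoglycerate, fell by 0.61 (FDR 0.00794), with a median of -0.40.

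Against the day 7 contralateral libraries, 32 of the 67 genes (47.8%) were called lower, beside 3.23% of all genes, and 2 higher, Steap3 and Runx1, beside 9.33%, with a median of -0.61 beside -0.05 for all genes. Without contralateral replicate 1, 2 genes (2.99%) were called lower, beside 1.99% of all genes, namely Kel, which was among the 32, and Gfi1b, which was not, each at -0.67. Steap3 and Runx1 were again called higher, while 64 of the 67 lay below 0 with a median of -0.43. At day 1, 0 of the 67 genes passed both limits in either comparison of injured libraries, beside 0% of all genes. In each comparison 65 lay below 0, with medians of -0.20 against naïve and -0.29 against contralateral libraries. Of all genes, 50% and 50.3% lay below 0. The direction of these lists in TPM is not given.

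The erythropoietin list holds the hormone, its kinase and factors, and genes they induce. Epo itself was at 0 in at least 1 library and was not tested. Of 10 tested genes, 2 rose by edgeR's test in day 7 injured against naïve libraries, Socs2, a feedback inhibitor of cytokine receptors, by 1.27 (FDR 6.83e-06) and Erfe, the hormone erythroferrone, by 1.06 (FDR 0.00520). Of all genes, 10.4% were called higher and 6.11% lower in this comparison. The kinase Jak2 stood at -0.14 (FDR 0.127) and the factor Stat5b at -0.12 (FDR 0.252), with 7 of the 10 below 0 and a median of -0.13. The summed level of the list was 482 to 510 CPM in day 7 injured libraries, below the naïve range of 516 to 580 CPM. Day 1 injured libraries, at 501 to 515 CPM, also lay below that range. Among the other globins, Hbq1b fell by 0.79 (FDR 0.00508) and Cygb, a globin of connective tissue cells, rose by 0.76 (FDR 0.00683), while Mb of muscle stood at -1.29 (FDR 0.0714). The other 6 of 10 genes of that list, among them the embryonic Hbb-y, Hbb-bh1 and Hba-x, were at 0 in at least 1 library. Of 8 tested genes that clear haemoglobin and haem, only Lrp1, the haemopexin receptor, passed, with a rise of 1.00 (FDR 0.00226), and the list median was 0.16.

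**Figure D4:**
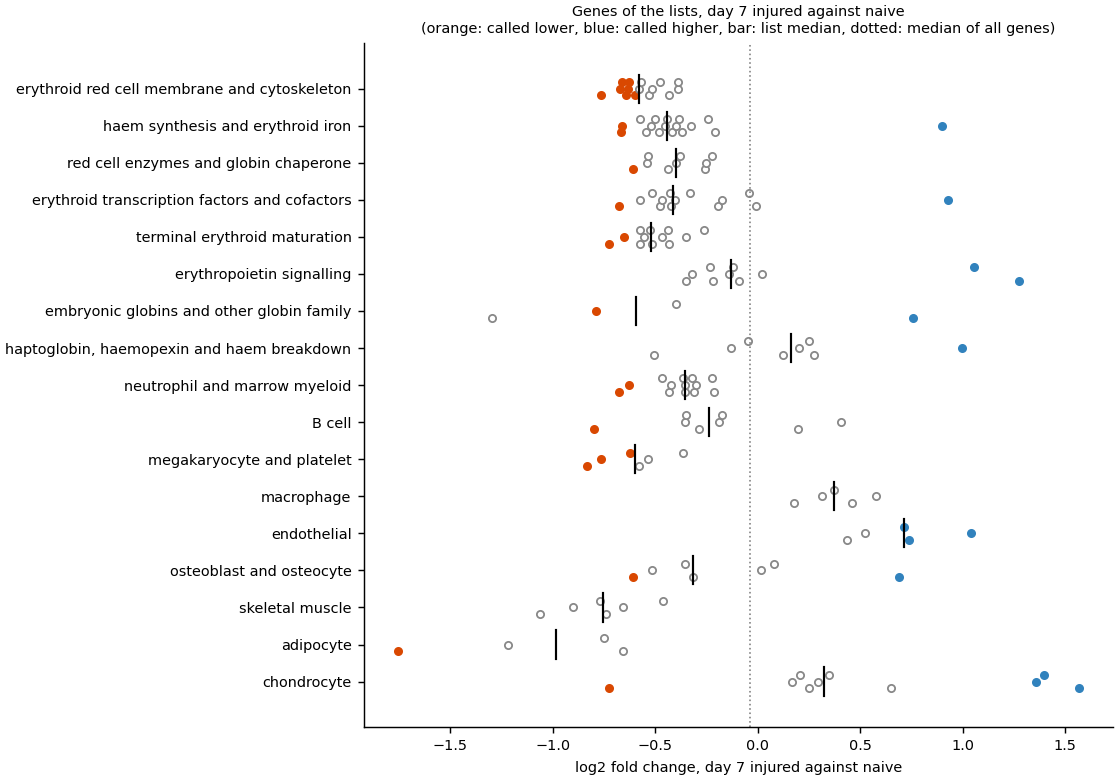
Log2 fold change of day 7 injured against naïve libraries for each gene of each list, with 1 point per gene, orange where called lower and blue where called higher, a bar at the list median and a dotted line at the median of all genes. The membrane list has a median of -0.58 and all 15 of its genes below 0, while the 5 endothelial genes lie above 0.

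Markers of other cell types moved in the same samples, and their part in the result for the erythroid genes was not tested. Against naïve libraries, 6.11% of all genes were called lower and 10.4% higher in day 7 injured libraries. All 13 neutrophil and marrow myeloid genes lay below 0 in day 7 injured against naïve libraries, with a median of -0.36, and 2 were called lower, S100a8 (-0.67, FDR 0.0192) and S100a9 (-0.63, FDR 0.0493), which encode the calprotectin subunits. Their summed level, led by Ngp, was 11864, 13969 and 17590 CPM as the lowest, median and highest naïve library, and 12817, 9828 and 9305 CPM in day 7 injured libraries, so that 1 injured library lay inside the naïve range. The 6 megakaryocyte and platelet genes, led by Ppbp, had a median of -0.60. Gp1bb, Gp9 and Ppbp were called lower, and the summed level of 575 ± 37.3 CPM in naïve libraries (SD, n = 6) stood beside 424, 383 and 329 CPM. Of 8 B cell genes, led by Rag1, 1 was called lower (Ms4a1, -0.80, FDR 0.00616), and the summed levels of 233 ± 53.5 CPM in naïve and 204, 197 and 166 CPM in day 7 injured libraries overlapped. Against day 7 contralateral libraries, the neutrophil list had 3 of 13 genes called lower (median -0.60) and the megakaryocyte list 4 of 6 (median -0.82), beside 3.23% of all genes. Without contralateral replicate 1 these were 5 of 13 (median -0.63) and 2 of 6 (median -0.51), beside the erythroid 2 of 67 (median -0.43) and 1.99% of all genes.

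Endothelial and some chondrocyte genes were higher in the same comparison. The 5 endothelial genes, led by Pecam1, all lay above 0 with a median of 0.71, and Pecam1, Cdh5 and Emcn were called higher. Their summed level was 254 ± 18.8 CPM in naïve libraries and 356, 383 and 444 CPM in day 7 injured libraries. Of 10 chondrocyte genes, Acan (1.57, FDR 3.31e-05), Comp (1.39, FDR 0.000104) and Sox9 (1.36, FDR 5.91e-05) were called higher by edgeR's test and Chad (-0.73, FDR 0.0459) lower. The summed chondrocyte level was 7396, 8544 and 8973 CPM in day 7 injured libraries, of which 2 lay above the highest naïve library, and 13939 CPM in day 7 contralateral replicate 1, beside 4743 and 5734 CPM in its fellows. The 5 macrophage genes, led by Csf1r, had a median of 0.37 and 0 calls by edgeR's test. Of 7 osteoblast and osteocyte genes, Ibsp (0.69) was called higher and Mepe (-0.61) lower, of 4 adipocyte genes Cidec (-1.75) was called lower, and of 6 muscle genes, led by Myh4, none was called at a median of -0.76. No gene of the lists of marrow, vessel, cartilage, bone, muscle and fat cells was at 0 in any library.

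**Figure D5:**
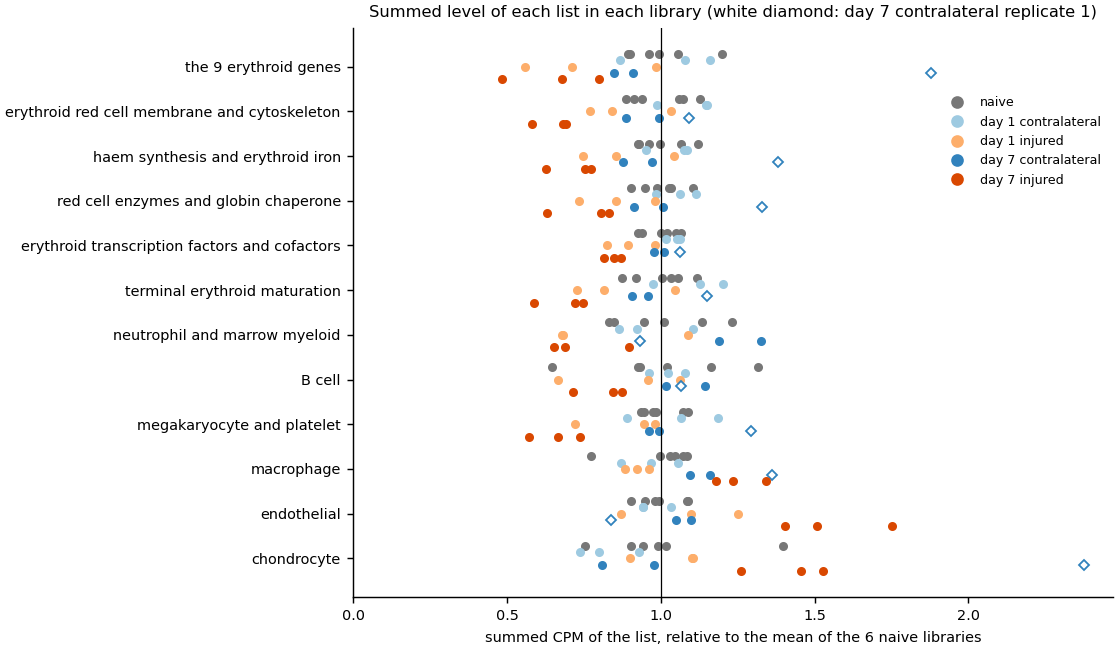
Summed CPM of each list in each library, divided by the naïve mean, with 1 point per library coloured by group and a white diamond for day 7 contralateral replicate 1. The day 7 injured libraries lie below the naïve mean in the erythroid, neutrophil, B cell and megakaryocyte lists. They lie above it in the macrophage, endothelial and chondrocyte lists.

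The size of the difference depended on the scale. Without TMM factors, the median of all genes in day 7 injured against naïve libraries was -0.35 on the log2 scale, beside -0.04 with them. On library totals the members moved with that shift, to between -0.77 for Gata1 and -1.05 for Alas2, and 8 of 9 were called lower, but so were 21.6% of all genes, and 6% were called higher. The TMM factors were 0.838, 0.829 and 0.852 in day 7 injured libraries, 0.696 in day 7 contralateral replicate 1 and 0.962 to 1.16 in the other libraries. In TPM, which carries no TMM factor, the day 7 injured means were 8383 for Hbb-bs, 7419 for Hba-a2, 107 for Slc4a1 and 97.6 for Alas2, below the naïve means. At day 1 the TPM of Slc4a1 was 267 in injured and 211 in naïve libraries, while the fold changes of counts were below 0 for the 8 members other than Klf1, from -0.02 to -0.30 on library totals. Both scales placed the day 1 injured means below the day 1 contralateral means, as with 267 against 299 TPM for Slc4a1.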

How the data were processed

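RNA-seq of 18 libraries was used. The authors trimmed the reads with Trimmomatic and quantified transcripts with Kallisto against the mouse transcriptome of GRCm38, and deposited per transcript the estimated counts (not normalised) and the TPM. Transcript identifiers were matched without version to GENCODE M21 symbols, and estimated counts and TPM were summed per gene, with counts rounded for the tests. edgeR 4.0.16 in R 4.3.3 was used with TMM factors, filterByExpr, the quasi-likelihood test and Benjamini-Hochberg adjustment over all tested genes. Calls needed a change of 1.5-fold or more and an FDR no higher than 0.05. Comparisons without day 7 contralateral libraries were fitted on 15 libraries and the others on 18. SEs are the log2 fold change divided by the square root of F. Correlations used log2(CPM + 1). The edgeR fit was tested on simulated counts for day 7 injured against naïve libraries, and the other steps were not. Alternatives used DESeq2 1.42.0 and limma 3.58.1, no filter, transcript length offsets, other sets of libraries and other limits. Genes were named as the members, the genes of 17 lists of 162 genes where called or defining, and the 10 most alike, of which some are not reported here. Members and lists were chosen with earlier results of these data known. The study's step that estimates how knees of 1 mouse correlate was not run, since the labels do not name the pools. Deposited tables were per library. The study removed 1 ACL library of poor mapping, which its methods do not name, so that library may be among the 18 used here. P-values measure the spread between pooled libraries.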

Additional observations from a re-analysis of the deposited data

Results flagged for a closer look

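Dixon's test for 1 value far from its group was applied to 39 quantities and marked 3, where chance marks about 1 in 20. All 39 were measured in the same 6 naïve libraries, the only group large enough. Some are sums or ratios of others, so that the tests are not independent. Hba-a2 of naïve replicate 3, at 13612 CPM, lay above the other naïve libraries at 9114 to 10795 CPM. Klf1 of naïve replicate 6, at 6.45 CPM, lay above the other naïve libraries at 0 to 0.0494 CPM. The summed macrophage level of naïve replicate 1, at 422 CPM, lay below the other naïve libraries at 544 to 593 CPM.

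The effect of injury against the contralateral knee differed between day 7 and day 1 in 7 of 153 tested genes of the lists (4.58%, beside 3.77% of all genes) by edgeR's interaction test, and in no member. On the log2 scale, day 7 minus day 1, the differences were 1.44 for Sox9 (FDR 0.0135), 1.31 for Acan (FDR 0.0463), 1.19 for Runx1 (FDR 0.0122), 1.04 for Socs2 (FDR 0.0182), 0.92 for Steap3 (FDR 0.00225) and 0.74 for Pecam1 (FDR 0.0216), and -0.90 for Sp7 (FDR 0.0422). Without day 7 contralateral replicate 1, 9 of 153 genes were called (5.88%, beside 4.41% of all genes). Sp7 was not among them (-0.78, FDR 0.0799), the other 6 were, at 0.64 for Pecam1 to 1.53 for Acan, and Bglap, Bglap2 and Dmp1 were added.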

How the results depend on the processing

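No member changed direction with a call under any alternative. In day 7 injured against naïve libraries, 4 members were called, 7 without the fold limit and 8 on library totals without TMM factors, a scale chosen after seeing the data. Leaving out 1 library each gave 1 to 6 members there, the lowest without day 7 injured replicate 3. DESeq2 and limma-voom each called 6. Beside the 4 members, 6.11% of all genes were called lower, and beside the 8 on library totals 21.6%. Where no such share is stated for an alternative, its count of members has no background beside it and was not compared with one. Against day 7 contralateral libraries, 7 members were called, 2 when only those groups were fitted and 1 at an FDR of 0.01, and leaving out 1 library each gave 0 to 8, the lowest without contralateral replicate 1. Against day 1 injured libraries, 0 members were called by edgeR, 1 by DESeq2, 2 without the fold limit and 9 on library totals, where 28.6% of all genes were called lower and 3.75% higher, and leaving out 1 library each gave 0 to 1. The causes were not tested. Counts of the other comparisons were 0 under all alternatives run. No paired analysis was possible because the labels do not say which libraries come from the same mice.

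Depth did not limit the globins, which had at least 28227 estimated counts of Hbb-bt in each library, but Klf1 was at or under 3 estimated counts in 11 of 18 libraries. Estimated counts cannot separate genes of a pair beyond what the software infers, and 3 libraries a group limit the precision.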
